A study of Saccharomyces cerevisiae with 4 samples.

Results

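The enolase family of Saccharomyces cerevisiae has 5 genes on these arrays, the enolase genes ENO1 and ENO2 and the enolase-related copies ERR1, ERR2 and ERR3, out of 5539 named genes. They were taken by gene symbol and chosen because ERR2 and ERR3 stood among the largest positive ratios of the treatment comparison while ERR1 stood below 0, so their treatment ratios are given as a description without a test. Each gene had 2 spots on every array, 10 of the 12800 spots, and all 10 gave a value on all 4 arrays. The data are 4 arrays with 2 channels, each holding RNA of cells kept for 4 h in 30 µg/ml Congo red, a chitin-binding dye used to stress the wall, beside RNA of untreated cells, both parts of a culture in rich glucose medium at 24 °C. Both channels came from the same BY4741 strain deleted for SLT2, the MAP kinase at the end of the cell wall integrity cascade, and no strain with SLT2 was analysed here. Treated RNA was in channel 2 on arrays 1 and 3 and in channel 1 on arrays 2 and 4. Nothing in the labels says that the 4 arrays came from separate cultures, so SDs and p-values measure only the spread between arrays, which may be technical.

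Enolase converts 2-phosphoglycerate to phosphoenolpyruvate, the step of glycolysis before pyruvate kinase, and runs backwards in gluconeogenesis. ENO2 is the main form in cells growing on glucose and is induced by it, whereas ENO1 is expressed on all carbon sources and is the lesser form on glucose. ERR1, ERR2 and ERR3 lie near chromosome ends and encode enolase-like proteins that are almost the same as each other and clearly diverged from Eno1 and Eno2, and they are known as weakly expressed genes. RNA of copies this similar can bind the same spot, so which ERR transcript a given ERR spot measured is uncertain, and to a lesser degree the same holds for ENO1 and ENO2. Probe sequences and spot brightness were not analysed here.

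Values are log2 ratios of Congo red over untreated RNA after each array was centred on its median spot and arrays 2 and 4 were multiplied by -1. The positive direction is likely only, since it takes channel 2 as the numerator, and if channel 1 is the numerator every sign turns together. Were the deposited ratios already treated over untreated on every array, the means below would measure channel order and not treatment. Between 84.1% and 90.9% of spots on an array were usable. The deleted SLT2 gave 1.48, -1.29, -1.51 and -1.14 on arrays 1 to 4, and since both channels lack it, its ratio does not check the labels. Of the transcripts of the other mating type, which this strain should lack, STE3 and SAG1 were measured on all 4 arrays and were below 0 on each (means -1.71 ± 0.69 and -1.58 ± 0.97, SD, n = 4). MF(ALPHA)1 and MF(ALPHA)2 were measured on 3 and 2 arrays, with means of -1.09 and -1.07. These 2 genes had 2 or more spots within 1 log2 unit on only 1 array each, and STE3 and SAG1 on 3. The part that such signal plays in the ratios below was not tested.

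ENO1 was higher with Congo red on all 4 arrays, at 0.23, 0.53, 0.22 and 0.75 on arrays 1 to 4, a mean of 0.43 ± 0.26 (SD, n = 4; 1.35-fold). ENO2, the main glucose form, was at -0.43, 0.02, -0.59 and 0.33, a mean of -0.17 ± 0.42 (n = 4), so the arrays did not share a direction. After centring, the values of ENO2 were below 0 on the arrays with treated RNA in channel 2 and above 0 on those with it in channel 1. On array 2 its spots stood at 0.08 and -0.05. With uncentred values the difference between these array pairs was much smaller, as given below. Paired spots of both genes agreed closely. The ENO1 spots differed by 0.0124 to 0.19 log2 units on an array and the ENO2 spots by 0.0014 to 0.14.

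Set against each other on the same array, the ENO1 ratio lay above the ENO2 ratio by 0.66, 0.52, 0.80 and 0.42, a mean difference of 0.60 ± 0.17 (SD, n = 4; 1.51-fold). This difference does not change when the same value, such as the array median, is subtracted from every spot of an array. With running windows of spots centred instead, the mean difference was 0.52 ± 0.15 (SD, n = 4). The spread of the difference over arrays was smaller than that of either gene alone. With median centring, ENO1 and ENO2 both stood higher on arrays 2 and 4 than on arrays 1 and 3. Among the 4481 genes measured on all 4 arrays, ENO1 lay between the 58.6th and the 85.8th percentile of the single arrays and ENO2 between the 12.6th and the 71.0th.

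ERR3 was higher with Congo red on all 4 arrays, at 0.94, 1.96, 1.13 and 1.62, a mean of 1.41 ± 0.47 (SD, n = 4; 2.67-fold). ERR2 was at 0.03, 1.96, 0.96 and 2.35, a mean of 1.32 ± 1.05 (n = 4; 2.50-fold). Array 1 placed ERR2 near the middle of all genes, at the 47.0th percentile, whereas the other 3 arrays placed it between the 90.6th and the 98.8th. Without array 1 the mean of ERR2 was 1.76. ERR3 lay between the 83.2nd and the 98.8th percentile on every array. The nearly equal values of ERR2 and ERR3 on array 2 were not repeated elsewhere, as the ERR2 ratio minus the ERR3 ratio was -0.92, -0.0016, -0.17 and 0.73 on arrays 1 to 4.

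ERR1 was lower with Congo red on all 4 arrays, at -1.03, -0.82, -0.86 and -0.87, a mean of -0.90 ± 0.09 (SD, n = 4; 0.538-fold). It lay between the 6.45th and the 12.6th percentile of genes. The ERR3 ratio exceeded the ERR1 ratio by 1.97, 2.79, 1.99 and 2.50, a mean of 2.31 ± 0.40 (n = 4; 4.96-fold), and the ERR2 ratio exceeded it by 1.06, 2.78, 1.82 and 3.22, a mean of 2.22 ± 0.97. On every array both ERR2 and ERR3 stood above ERR1, a contrast for which these genes were chosen. Of the 5 genes, ENO1, ERR2 and ERR3 were higher on 4 of 4 arrays and ERR1 lower, where 20.4% and 21.3% of all 4481 genes were so placed. The members were chosen on these ratios, so nothing is read from that count.

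**Figure D1:**
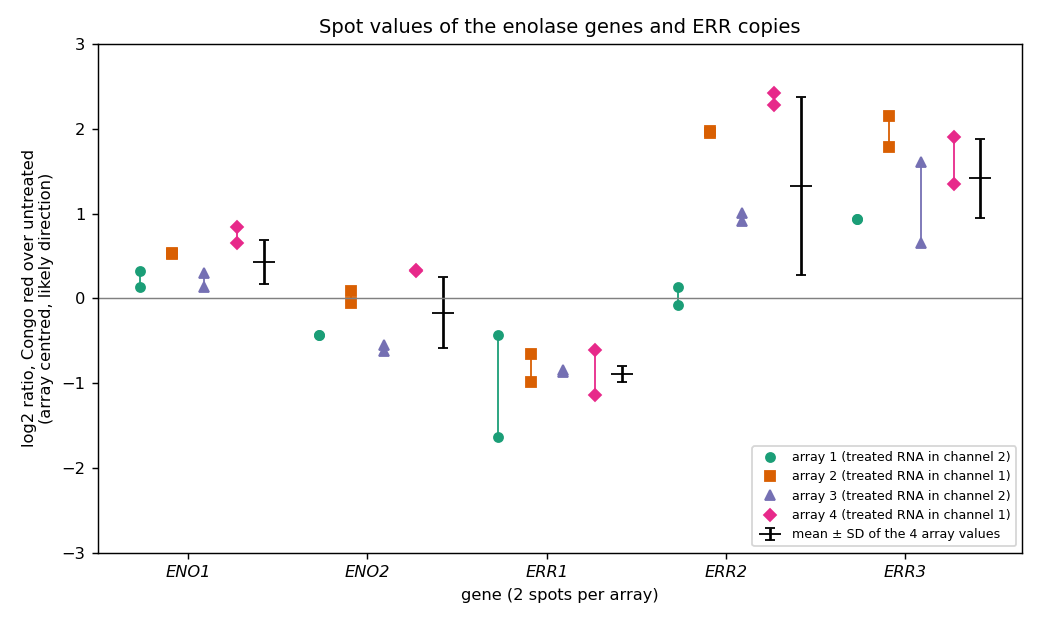
Log2 ratio of Congo red over untreated RNA (y axis) for each of the 2 spots of ENO1, ENO2, ERR1, ERR2 and ERR3 on each of 4 arrays, joined by a line, with the mean ± SD of the 4 array values in black. After centring, ERR2 and ERR3 lie above 0.6 at every spot except those of ERR2 on array 1. ERR1 lies below 0 at every spot after centring, and the ERR1 spots on array 1 are the farthest apart.

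Spot pairs show how much of this spread lies within an array. The ERR2 spots were 0.22, 0.0267, 0.0997 and 0.15 log2 units apart on arrays 1 to 4, so its SD of 1.05 between arrays was larger than the gap of any of its spot pairs. The ERR3 spots were 0.0006, 0.37, 0.96 and 0.56 apart. On array 3 they stood at 0.65 and 1.61, a gap larger than that of all but 8.90% of genes with 2 or more spots there.

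ERR1 was the reverse case. Its SD over arrays was smaller than that of all but 2.45% of genes, yet its spots were 1.20, 0.33, 0.0191 and 0.53 apart. On array 1 they stood at -0.43 and -1.63, from deposited ratios of 1.000 and 0.436. The spot values of ERR1 ran from -1.63 to -0.43 over the 4 arrays, and the SD of 0.09 between array means therefore understates how far single measurements of ERR1 varied. After centring, all 8 spot values of ERR1 were below 0 and all 8 of ERR3 above 0. For ERR2 1 of 8, at -0.08 on array 1, was below 0. Before centring the ERR1 spot at -0.43 stood at 0 and the ERR2 spot at -0.08 stood at 0.35, so these signs come from the centring. With uncentred values ERR1 had a mean of -0.81 and an SD over arrays of 0.47.

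Channel order is a contrast that the choice of these genes did not use. A coefficient below 0 means that the turned ratio was lower on arrays 1 and 3, with treated RNA in channel 2, than on arrays 2 and 4. The coefficient was below 0 for all 5 genes, as it was for 42% of the 4481 genes, but it turned above 0 with uncentred values for ENO1 (0.070) and ERR1 (0.23) and with running windows of 400 spots centred for ERR1 (0.0069). ERR2 had the largest, -0.83, with means of 0.49 on arrays 1 and 3 and 2.16 on arrays 2 and 4. ERR3 followed at -0.38, with means of 1.04 and 1.79 in the same order of array pairs.

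Among the others, ENO2 had a coefficient of -0.34, with means of -0.51 on arrays 1 and 3 and 0.17 on arrays 2 and 4, ENO1 one of -0.21 and ERR1 one of -0.05. For ENO2 the coefficient was larger in size than its mean treatment ratio of -0.17 with centred values. With uncentred values it was not, at -0.06 against a mean of -0.08. Uncentred values also gave smaller coefficients for ERR3 (-0.10) and ERR2 (-0.55). None of the 5 passed limma's test over all genes (adjusted p = 0.87 for ENO1, ENO2, ERR2 and ERR3 and 0.95 for ERR1), where 0% of the 4481 genes passed. ERR2 had an unadjusted p under 0.05 (limma), as had 182 of all genes, or 4.06%. With running windows ERR2 and ERR3 both had one (adjusted p = 0.81, limma), and the share of all genes in that setting was not counted. Restricted to genes whose spots agreed, the duplicate-spot analysis described next, the 4 members that could be tested had adjusted p between 0.25 and 0.78 (limma), and 1 of 2804 genes (0.0357%) passed. In that analysis ERR2, ERR3 and ENO2 had an unadjusted p under 0.05 (limma), as had 187 genes, or 6.67%.

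**Figure D2:**
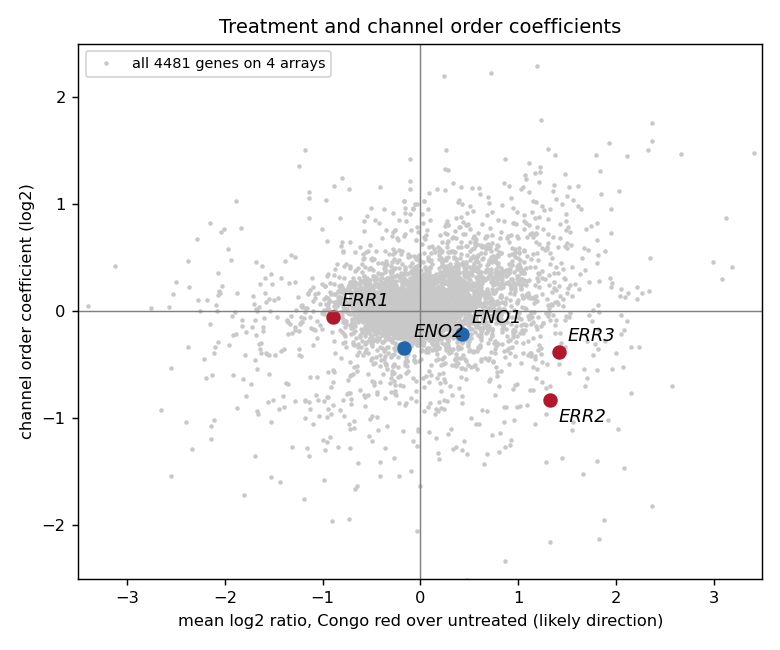
Mean log2 ratio of Congo red over untreated RNA (x axis) against the channel order coefficient (y axis, log2) for 4481 genes in grey, ENO1 and ENO2 in blue and the ERR genes in red; 3 genes lie outside the axes. The 5 genes differ widely along the x axis and all lie below 0 on the y axis, ERR2 lowest at -0.83; with uncentred values ENO1 and ERR1, and with running windows ERR1, turn above 0.

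Among the other enzymes of glycolysis and gluconeogenesis, PYK2 and EMI2 rose and FBA1 fell in a duplicate-spot analysis, and none passed when all spots were used. The list held 25 genes without enolase, of which 21 were measured on all 4 arrays. Their median was -0.05, against 0.02 over all genes. Of the 21, 4 were higher and 7 lower on 4 of 4 arrays, where 20.4% and 21.3% of all genes were so placed. No gene of the list passed limma's test over the 4481 genes, where 0% passed and the smallest adjusted p was 0.0522; 8 of the 21 and 1234 of all genes, or 27.5%, had an unadjusted p under 0.05 (limma).

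The duplicate-spot analysis kept a gene on an array only where 2 or more spots lay within 1 log2 unit, and tested 2804 genes. It was chosen with its number of calls known, and 16.8% of genes passed there, 5.31% higher and 11.5% lower. ERR1 met this spot rule on 3 arrays and the other 4 members on 4. Of the list 3 of 18 passed, 2 higher and 1 lower, a share close to that of all genes. PYK2, the lesser pyruvate kinase, rose (0.97 ± 0.40, adjusted p = 0.0149, limma), as did EMI2, a glucokinase-like protein (0.94 ± 0.48, adjusted p = 0.0193). FBA1, the aldolase, fell (-0.53 ± 0.18, adjusted p = 0.0315, limma). The count was 1, 2, 0 and 0 without arrays 1, 2, 3 and 4, and the count over all genes was 336, 215, 0 and 0. FBA1 did not pass without any of the arrays in turn, nor with uncentred values (adjusted p = 0.60, limma). EMI2 did not pass without array 1, 3 or 4 (adjusted p = 0.0504, 0.0704 and 0.0904, limma). PYK2 did not pass without array 3 or 4 (adjusted p = 0.0818 and 0.0696, limma). With running windows of 400 spots centred the count was 6, of which 2 were higher and 4 lower.

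The steps next to enolase were measured beside it. GPM1, the main phosphoglycerate mutase, which makes the substrate of enolase, was at -0.63, -0.42, -0.96 and -0.11 on arrays 1 to 4, a mean of -0.53 ± 0.36 (n = 4). CDC19, the main pyruvate kinase, which uses its product, was at -0.29, -0.02, -0.55 and -0.15, a mean of -0.26 ± 0.23. Neither passed the test. On every array the ratio of ENO2 lay above that of GPM1. Against CDC19, the ratio of ENO2 lay lower on arrays 1 and 3 and higher on arrays 2 and 4.

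Of the other genes of the list with large mean ratios, GPM2, related to phosphoglycerate mutase, stood at 2.09 ± 1.02 (n = 4) and HXK1, a hexokinase, at 1.13 ± 1.01 (n = 4). TDH2, a glyceraldehyde-3-phosphate dehydrogenase, was below 0 on all 4 arrays, at -0.56, -0.32, -0.90 and -0.21 (mean -0.50 ± 0.31), and did not pass (adjusted p = 0.0572 in the duplicate-spot analysis, limma). PFK27, which makes the activator fructose 2,6-bisphosphate, stood at 1.09 ± 0.45 on 3 arrays. FBP1, the gluconeogenic bisphosphatase, and GPM3 were measured on 2 arrays, at 1.48 and 1.30 on arrays 1 and 3 for FBP1 and at -1.24 and -2.38 on arrays 1 and 2 for GPM3. PCK1, which makes phosphoenolpyruvate in gluconeogenesis, was measured on array 1 alone, at 1.42. The duplicate-spot rule was met on 3 arrays for HXK1, 2 for GPM2 and PFK27, 1 for FBP1 and 0 for GPM3 and PCK1. Values of these genes are therefore uncertain.

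**Figure D3:**
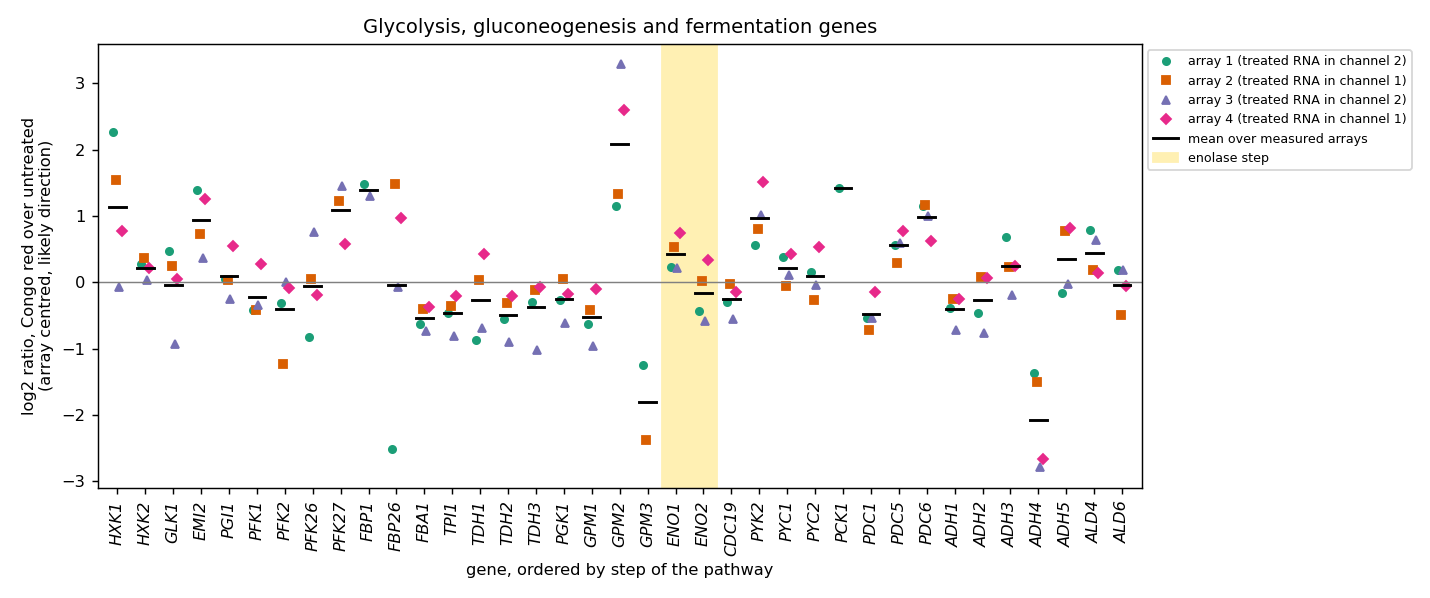
Log2 ratio of Congo red over untreated RNA (y axis) on each measured array for genes of glycolysis, gluconeogenesis and fermentation in pathway order (x axis), with the mean as a black bar and the enolase step shaded. ENO1 lies above 0 on 4 arrays while ENO2, GPM1 and CDC19 have means below 0.

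Of the fermentation genes, PDC5 and PDC6 rose and PDC1 fell in the duplicate-spot analysis. All 10 were measured, with a median of 0.10, and none passed in the first analysis, where 5 had an unadjusted p under 0.05 (limma), as had 27.5% of all genes. ADH4, an alcohol dehydrogenase, was below 0 on all 4 arrays, at -1.36, -1.51, -2.79 and -2.67 (mean -2.08 ± 0.75, n = 4). Its adjusted p in the first analysis was 0.0576 (limma). It met the duplicate-spot rule on 3 arrays and was not tested in the duplicate-spot analysis. Of the 9 tested in the duplicate-spot analysis 3 passed, beside the 16.8% of all genes. PDC6, a minor pyruvate decarboxylase, rose to 0.98 ± 0.25 (adjusted p = 0.010, limma) and PDC5 to 0.55 ± 0.20 (adjusted p = 0.0296). PDC1, the main pyruvate decarboxylase, fell to -0.48 ± 0.24 (adjusted p = 0.0488, limma). The count was 1, 2, 0 and 0 without arrays 1, 2, 3 and 4, and 1 with uncentred values. PDC1 did not pass without any of the arrays in turn, with uncentred values (adjusted p = 0.65, limma), with running windows (0.0548) or with genes on 3 arrays admitted (0.0677). PDC5 did not pass without array 1, 3 or 4 (adjusted p = 0.0694, 0.13 and 0.10, limma). With uncentred values (adjusted p = 0.36, limma) or after the length trend was removed (0.072) PDC5 also did not pass. PDC6 did not pass without array 3 or 4 (adjusted p = 0.0704 and 0.0612, limma).

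Pairs of a lesser and a main glucose isozyme set ENO1 and ENO2 among comparable genes. These 8 pairs were listed from textbook knowledge after the values had been seen, and are described without a test. The mean difference of lesser minus main was above 0 in all 8, from 0.10 to 2.62 with a median of 0.97, and 5 pairs were above 0 on 4 of 4 arrays. PDC5 minus PDC1 was the steadiest, at 1.10, 1.02, 1.13 and 0.91 (mean 1.04 ± 0.10, n = 4). PYK2 minus CDC19 was 0.85, 0.82, 1.56 and 1.66 (mean 1.22 ± 0.45). The largest, GPM2 minus GPM1, rests on GPM2, which met the duplicate-spot rule on 2 arrays. PDC1 was the main form for both PDC5 and PDC6. Pairs left out of the list went both ways. By mean, TDH2 (-0.50) stood below TDH3 (-0.38) and GLK1 (-0.04) below HXK2 (0.22), whereas EMI2 (0.94) stood above HXK2. GPM3 stood below GPM1 on both arrays that measured it.

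ENO1 minus ENO2, at 0.60, was the smallest of the 5 listed pairs that held on all arrays. ADH2 minus ADH1 was -0.06, 0.33, -0.04 and 0.31 (mean 0.14 ± 0.22) and TDH1 minus TDH3 -0.57, 0.15, 0.34 and 0.50 (mean 0.10 ± 0.47). Both of these lay within their spread over arrays. Isozyme pairs, ENO1 and ENO2 among them, can be close in sequence, and the part that shared binding plays in these differences was not tested. HXK1 minus HXK2 was 2.00, 1.18, -0.10 and 0.55.

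**Figure D4:**
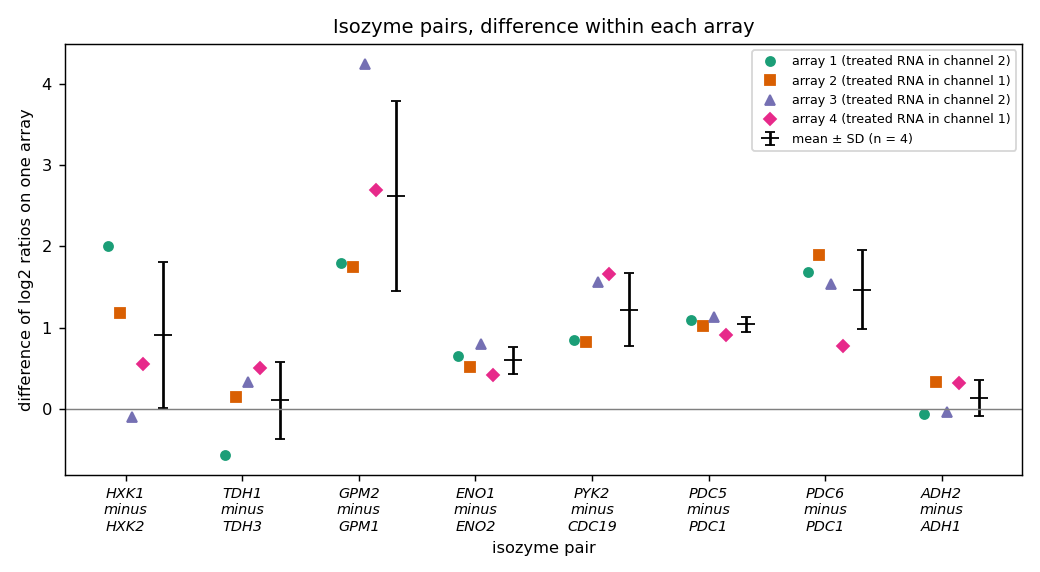
Difference of log2 ratios between a lesser and a main isozyme on the same array (y axis) for 8 pairs (x axis), with the mean ± SD over 4 arrays in black. ENO1 minus ENO2 lies between 0.42 and 0.80 on the 4 arrays.

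No regulator of glycolytic genes passed. Of 8 listed, 7 were measured on all 4 arrays, 4 of them with agreeing spots, and none passed in either analysis, with 1 of 7 at an unadjusted p under 0.05 (limma) in the first, against 27.5% of all genes. GCR1, the activator that binds many glycolytic promoters, was measured on arrays 2, 3 and 4, at 0.75, 0.43 and 0.44. RAP1, a factor that binds beside it, ranged from -5.75 to 3.04 and its level is not fixed by these arrays.

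The ERR genes share a chromosomal setting that their choice did not use. In the order of the RefSeq gene table (assembly R64) ERR1 is gene 4 from the right end of chromosome XV, ERR2 gene 3 from the left end of XVI and ERR3 gene 2 from the right end of XIII, whereas ENO1 is gene 38 from the right end of VII and ENO2 gene 55 from the right end of VIII. Each ERR gene lies between a PAU gene, of a family of seripauperin mannoproteins, and a gene of the Hsp31 chaperone family. ERR1 and ERR2 also each have a FEX gene, encoding a fluoride exporter, next to the Hsp31 relative. All 5 members span 1314 bp in that table.

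Values of neighbouring genes were mixed. Of 21 genes within 5 places of an ERR gene, 14 were measured on 4 arrays, with a median of -0.08, and of these 2 were higher and 3 lower on 4 of 4 arrays, shares near the 20.4% and 21.3% of all genes. Next to ERR2, which was above 0, HSP32 was at -0.99, -1.55, -2.07 and -1.54 (mean -1.54 ± 0.44, n = 4) and PAU22 at -0.09 ± 0.06. Next to ERR1, HSP33 was at -2.05, -4.03, 0.34 and -1.79 (mean -1.89 ± 1.79) and PAU21 ranged from -2.10 to 4.01. Next to ERR3, SNO4 was at 0.89, 1.92 and 2.62 on arrays 1 to 3 and PAU19 had a mean of 0.27 ± 0.38. None of these neighbours passed limma's test where tested (adjusted p for HSP32 = 0.0553).

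Paired spots of these chaperone genes often disagreed or were single. SNO4 met the duplicate-spot rule on 0 arrays, HSP33 on 2 and HSP32 on 3, so their values are uncertain. FEX2, next to HSP32, was at -0.24 ± 0.09, and FEX1 was measured on arrays 1 and 2 at -0.84 and 0.42. Over all chromosomes, 107 genes among the 5 outermost of each end, the ERR genes included, had a median of 0.10 against 0.02 over all genes. Of these 32.7% were higher on 4 of 4 arrays and 16.8% lower, where all genes gave 20.4% and 21.3%. This list was chosen after values were seen and was not tested.

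**Figure D5:**
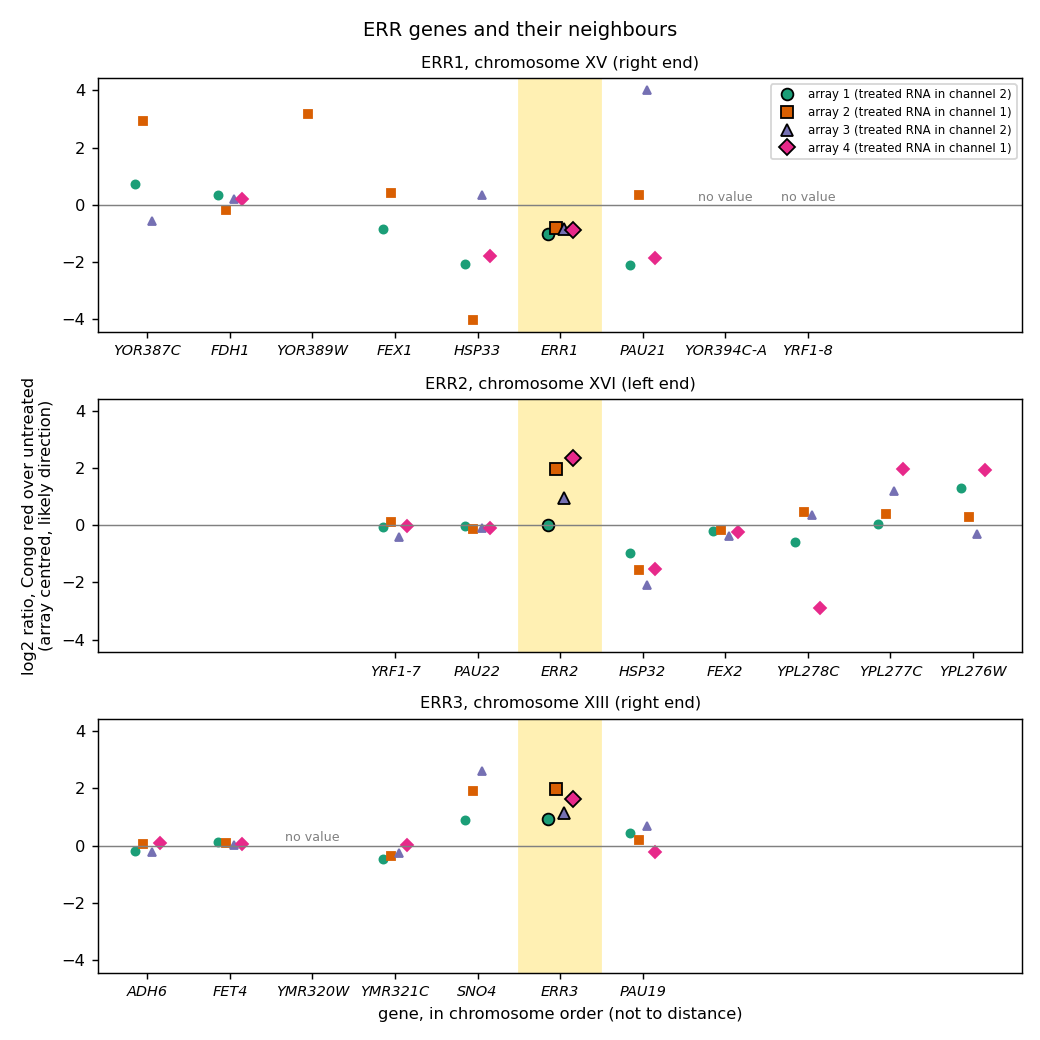
Log2 ratio of Congo red over untreated RNA (y axis) on each array for ERR1, ERR2 and ERR3 (shaded) and up to 5 genes on either side in chromosome order (x axis, not to distance). ERR2 lies at or above 0 while its neighbour HSP32 lies between -2.07 and -0.99.

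Genes with the most similar values were found by the root mean square difference of the 4 array values, over 4481 genes. The 3 nearest to ENO1 were MTC6, AUS1 and KTR4, at 0.0713, 0.10 and 0.11 log2 units. EAT1, GTA1 and FAR1 were nearest to ENO2, at 0.0623 to 0.0838. ERR1 lay near TOM7, ACP1 and YFR035C, at 0.0876 to 0.12. Nearest to ERR2, at larger differences, were YPR027C at 0.26, MNT3 at 0.48 and PRO1 at 0.50, and the nearest to ERR3 were POL4, LRG1 and BRF1, at 0.35 to 0.38. No ERR gene was among the 3 nearest to another, nor was either enolase gene among those nearest to the other.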

How the data were processed

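RNA of slt2-deleted yeast with and without Congo red was compared on 4 arrays with 2 channels. Each deposited value is a log2 ratio of both channels at a spot, as the values and the labels show. The sources used here do not give the scanner, filters, normalization or numerator channel. The shared top value of 16.61 (the log2 of 100000) was taken as a placeholder and set to missing. Deposited medians were 0.43, -0.25, 0.30 and 0.64 on arrays 1 to 4, and each was subtracted. Arrays of opposite channel order correlated at -0.38 to -0.19 across spots and those of the same order at 0.27 and 0.31, so arrays 2 and 4 were multiplied by -1. No array was left out, and the number of arrays limits the precision.

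The platform annotation named 11138 spots for 5539 genes, of which 5534 took current symbols from RefSeq (R64). Spots of a gene were averaged. Genes on 4 arrays (4481) had their ratios set against 0 in limma (3.58.1, R 4.3.3), with Benjamini-Hochberg adjustment at 0.05 and, in a second model, channel order as a further coefficient. A duplicate-spot analysis (2804 genes) required 2 spots within 1 log2 unit. The script was tested on simulated data. Alternatives were the orientation, centring, the placeholder, the spot rule and summary, gene length, genes on 3 arrays and leaving out each array. Named were the 5 members, list genes that passed, the 8 other glycolysis genes with the largest means and SLT2. Also named were 3 nearest genes per member and up to 5 neighbours on each side. Isozyme pairs and genes set beside them, ADH4, other neighbouring steps and the chromosome end list were chosen after values were seen. Members and lists were chosen with earlier results of these data known. No sequences are printed.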

Additional observations from a re-analysis of the deposited data

Results flagged for a closer look

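None of the 5 enolase family genes had an array far from the other 3. Of 73 genes tested for 1 array lying far from the rest, 4 did, and chance gives about 1 in 20. GCR2, a co-activator of glycolytic genes, stood at 1.40 on array 1 and TYE7, another regulator of glycolytic genes, at 2.40 on array 1. SLT2 stood at 1.48 on array 1. GCR2, TYE7 and SLT2 each met the duplicate-spot rule on 3 arrays, so each has an array value that rests on disagreeing or single spots. PFK1, a subunit of phosphofructokinase, stood at 0.27 on array 4, against values below 0 on the other arrays.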

How the results depend on the processing

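With no array turned, the means were -0.21 for ENO1, -0.83 for ERR2 and -0.38 for ERR3, all reversed, and -0.048 for ERR1 and -0.34 for ENO2. These 5 means are the channel order coefficients given above, since the arrays are split evenly by channel order, and so add no separate result. With no array turned, ENO1 minus ENO2 was 0.13 and ERR3 minus ERR1 -0.33. Every other alternative tried concerned centring, the placeholder, the spot rule and summary, the length trend or an array left out. Under these the 5 means and both differences kept their direction and moved by less than the SD over arrays. Much of this was fixed in advance. Leaving out 1 of 4 arrays cannot move a mean by a full SD, and with 2 spots the median equals the mean. The spot rule dropped only ERR1 on array 1. Neither difference can change with the array median, the placeholder or, at equal gene length, the length trend. Leaving out each array gave 0.32 to 0.50 for ENO1, -0.33 to -0.03 for ENO2, -0.92 to -0.85 for ERR1, 0.98 to 1.76 for ERR2, 1.23 to 1.57 for ERR3, 0.53 to 0.66 for ENO1 minus ENO2 and 2.15 to 2.42 for ERR3 minus ERR1. The median of all genes was 0.11 with uncentred values, against 0.02 with centred ones.

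The channel order coefficients of ENO1 (0.070) and ERR1 (0.23) turned positive with uncentred values, and that of ERR1 (0.0069) with running windows. Those of ENO2 (-0.06), ERR2 (-0.55) and ERR3 (-0.10) stayed negative with uncentred values but were smaller in size. Uncentred values gave 1 call among glycolysis genes, 1 among fermentation genes and 93 over all, and running windows 1, 2 and 195, while 23 genes passed over all after the length trend was removed and 472 in the duplicate-spot analysis, where 3 genes of each list passed. In the duplicate-spot analysis no array turned gave 0 calls in both lists and over all genes (limma). Running windows gave 6 glycolysis calls, uncentred values 1 fermentation call and 59 over all (37 higher and 22 lower, against 149 and 323), and removal of the length trend 195 (84 higher and 111 lower). Leaving out each array gave 0 to 2 calls in each list and 0 to 336 over all. The causes were not tested. Each ratio already pairs treated and untreated RNA within an array, so no further replicate block was fitted. Signal over background was not analysed here.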
